A study of Homo sapiens with 8 samples.

Results

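The 10 genes described here encode the pyruvate dehydrogenase complex and the enzymes that switch it off and on: the kinases PDK1, PDK2, PDK3 and PDK4, the phosphatase catalytic subunits PDP1 and PDP2, and the catalytic core genes PDHA1, PDHB, DLAT and DLD. They were taken by symbol from deposited gene counts that listed 27317 symbols, and all 10 were found and passed the filter on low counts, as did 17268 genes in all. RNA sequencing libraries came from Mel1, an established human embryonic stem cell line, in 4 groups of 2 libraries. Cells kept in E8 medium were exposed at the stem cell stage to 2 nM TCDD dissolved in DMSO, or to DMSO alone. TCDD is a dioxin and acts through the aryl hydrocarbon receptor, a ligand-activated transcription factor. Libraries labelled D1 were taken just before differentiation. Those labelled D2 were taken 2 days after it began, in RPMI with B27 lacking insulin and with 5 µM CHIR99021, an inhibitor of the kinase GSK3. All 4 groups therefore carried DMSO and came from the same line. Neither how long the exposure lasted nor whether a group's libraries are from different cultures is stated in the labels, so p-values measure only the spread between these libraries, and that may be technical.

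The pyruvate dehydrogenase complex sits in the mitochondrial matrix and converts pyruvate from glycolysis into acetyl-CoA for the tricarboxylic acid cycle. The kinases phosphorylate its E1 alpha subunit and stop it, which leaves pyruvate for reduction to lactate, and the phosphatases remove that phosphate and restore activity. Pluripotent stem cells are known for a strongly glycolytic metabolism, and PDK1 is a textbook target of the hypoxia-inducible factor HIF-1. These are transcript levels, so neither phosphorylation nor activity of the complex was measured.

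Levels are TMM-scaled CPM, edgeR's counts relative to the scaled library total. Fold changes on the log2 scale, each with its standard error (SE), came from 1 edgeR quasi-likelihood fit to all 8 libraries. The p-values printed were adjusted by the Benjamini-Hochberg method over the 17268 genes, and a gene below 0.05 was called. Totals ran from 34873055 to 43770420 counts per library. CYP1A1, the standard target of the aryl hydrocarbon receptor, stood at 101 and 77.7 CPM with TCDD at D1 against 0.761 and 0.813 CPM with DMSO, and at 2.56 and 1.82 against 0.464 and 0.292 CPM at D2, as the labels give it. All 8 pluripotency markers were at 1 CPM or more in each group, which fits the labelled cell type, and the 8 primitive streak and early mesoderm markers summed to 8.87 to 10.5 CPM at D1 and 491 to 832 CPM at D2. The 10 genes were selected on earlier results of these same libraries, the fold changes between the 4 groups among them, so the fold changes and p-values below describe the genes and support nothing further.

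PDP1 was the member called with TCDD at both times, rising 1.49-fold at D1 and 1.74-fold at D2. PDK1 was 1.21-fold higher with TCDD at D1, and it was 8.14-fold higher at D2 than at D1 in the DMSO cells. PDHB was 1.13-fold lower with TCDD at D2. The other 7 members were called with TCDD at neither time.

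**Figure D1:**
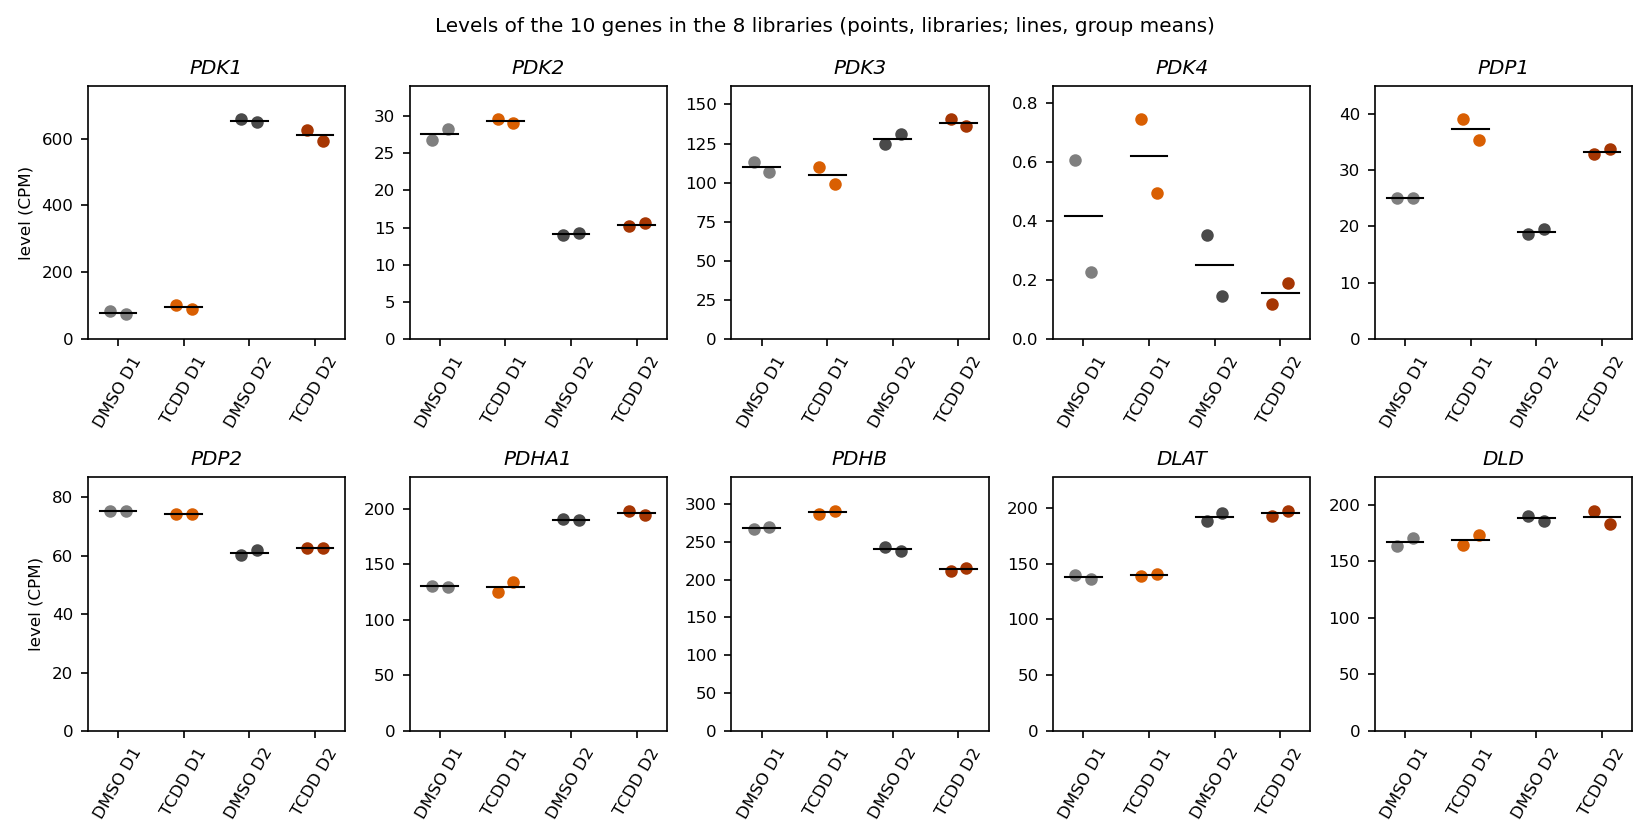
Level in CPM (vertical axis, linear from 0, with its own range for each gene) of the 10 genes in the 4 groups. Points are the 2 libraries of a group and lines are group means; PDK1 stands at 77 to 103 CPM in the D1 libraries and at 594 to 658 CPM in the D2 libraries, and PDP1 is higher with TCDD at both times.

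PDK1 encodes the kinase isoform best known as induced by low oxygen. At D1 it was at 83.7 and 76.8 CPM with DMSO and at 103 and 91.3 CPM with TCDD. At D2 it was at 658 and 649 CPM with DMSO and at 624 and 594 CPM with TCDD. The TCDD libraries were the higher ones at D1 and the lower ones at D2, and the groups overlapped at neither time. With 2 libraries a group, such separation also occurs at small differences, as for PDP2 below (log2 fold changes of -0.02 and 0.04). With TCDD the log2 fold change was 0.27 ± 0.06 at D1 (SE, edgeR adjusted p = 0.0160) and -0.10 ± 0.05 at D2 (edgeR adjusted p = 0.402). The effect at D2 was lower than that at D1 by a log2 difference of -0.37 ± 0.08 (edgeR adjusted p = 0.0198). The D1 call was lost when only the D1 groups were fitted (edgeR adjusted p = 0.0510), without DMSO D1 replicate 2 (0.195, log2 fold change 0.21) and without TCDD D1 replicate 1 (0.146, log2 fold change 0.18). The call of the difference was lost on leaving out any of 5 of the 8 libraries, namely DMSO D1 replicate 2, both DMSO D2 libraries, TCDD D1 replicate 1 or TCDD D2 replicate 2, with edgeR adjusted p-values of 0.0521 to 0.130.

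Between D1 and D2, PDK1 rose by 3.02 ± 0.06 on the log2 scale with DMSO (edgeR adjusted p = 1.66e-19) and 2.65 ± 0.06 with TCDD, which is 6.28-fold (edgeR adjusted p = 9.21e-19). By p-value it was the gene of rank 10 among the 17268 with DMSO and of rank 17 with TCDD. Time, medium, loss of insulin and the GSK3 inhibitor all differ between D1 and D2 and cannot be told apart. In such bulk libraries, more cells of a type and more RNA per cell cannot be told apart either.

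The gene has 2 start windows in RefSeq (GRCh38.p14). They are printed because PDK1 moved most. The matching window of PDK3 is printed too, as that isoform was highest among the kinases per base of transcript at D1, by the lengths used here. Each is the 250 bases before a start, on the plus strand, with capitals marking 2 motifs searched on both strands, overlapping matches counted separately: ACGTG, found in binding sites of HIF-1, and GCGTG, the core bound by the aryl hydrocarbon receptor.
PDK1, chr2:172555123-172555372, plus strand: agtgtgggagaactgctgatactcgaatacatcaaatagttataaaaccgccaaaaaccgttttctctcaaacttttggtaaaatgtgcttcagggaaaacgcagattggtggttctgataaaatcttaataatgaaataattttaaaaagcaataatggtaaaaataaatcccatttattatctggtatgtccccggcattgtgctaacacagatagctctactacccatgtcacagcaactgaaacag
PDK1, chr2:172555840-172556089, plus strand: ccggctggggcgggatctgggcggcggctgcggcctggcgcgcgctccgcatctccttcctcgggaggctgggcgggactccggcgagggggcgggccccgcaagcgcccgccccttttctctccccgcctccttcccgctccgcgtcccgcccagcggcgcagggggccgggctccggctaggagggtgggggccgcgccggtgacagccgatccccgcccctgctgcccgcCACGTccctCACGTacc
PDK3, chrX:24465036-24465285, plus strand: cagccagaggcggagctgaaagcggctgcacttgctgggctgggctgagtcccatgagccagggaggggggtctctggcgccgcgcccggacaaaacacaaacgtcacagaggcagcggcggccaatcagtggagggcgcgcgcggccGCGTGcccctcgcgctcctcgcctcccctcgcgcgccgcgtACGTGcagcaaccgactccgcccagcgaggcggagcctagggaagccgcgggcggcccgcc
The first PDK1 window held neither motif. The second held 2 matches to ACGTG, whose first bases lie 17 and 8 bases before the start, and none to GCGTG. The PDK3 window held 1 match to each, ACGTG from 61 and GCGTG from 102 bases before the start. Of all 35116 promoter windows in the same table, 18.5% held ACGTG, 32.2% held GCGTG and 43.2% held either. Of the 13 windows of 9 members, 8 held either motif. PDP1 was left out of this search of the members, so these counts say nothing about it. A match describes letters in a window and not a bound site, and the 2 motifs do not tell sites of these factors apart.

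PDK3 encodes an isoform whose activity is little restrained by pyruvate. It stood at 113 and 107 CPM with DMSO and 110 and 99.4 CPM with TCDD at D1, and at 125 and 131 against 141 and 136 CPM at D2. The groups overlapped at D1, while at D2 both TCDD libraries were above both DMSO libraries. With TCDD its log2 fold change was -0.07 ± 0.05 at D1 (edgeR adjusted p = 0.722) and 0.11 ± 0.05 at D2 (edgeR adjusted p = 0.318), and neither was called. PDK3 rose from D1 to D2 by 0.22 ± 0.05 on the log2 scale with DMSO (edgeR adjusted p = 0.00109) and by 0.40 ± 0.05 with TCDD (edgeR adjusted p = 8.87e-07).

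PDK2, a widely expressed isoform, went the other way during differentiation. It was at 26.7 and 28.2 CPM with DMSO and 29.6 and 29.0 CPM with TCDD at D1, and at 14.0 and 14.3 against 15.2 and 15.6 CPM at D2. No D2 library reached a D1 library. It fell by 0.96 ± 0.07 on the log2 scale with DMSO, 1.94-fold (edgeR adjusted p = 1.15e-10), and by 0.93 ± 0.07 with TCDD (edgeR adjusted p = 1.33e-10). The TCDD libraries were slightly the higher at both times, with log2 fold changes of 0.09 ± 0.06 and 0.12 ± 0.07 that were not called (edgeR adjusted p = 0.683 and 0.482).

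PDK4, the isoform induced by fasting and fatty acids in muscle and liver, was close to the detection limit. Its counts at D1 were 24 and 9 with DMSO and 32 and 18 with TCDD, and at D2 they were 13 and 6 with DMSO and 5 and 7 with TCDD. These equal 0.119 to 0.747 CPM, and the TCDD and DMSO libraries overlapped at both times. With TCDD the log2 fold changes were 0.59 ± 0.41 at D1 and -0.67 ± 0.63 at D2, neither called (edgeR adjusted p = 0.690 and 0.711). It was 4.05-fold lower at D2 than at D1 with TCDD (log2 fold change -2.02 ± 0.51, edgeR adjusted p = 0.00184). With DMSO the log2 fold change was -0.77 ± 0.50 (edgeR adjusted p = 0.192), and without DMSO D1 replicate 2 it was -1.30 and called (edgeR adjusted p = 0.0336).

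PDP1 encodes the calcium-stimulated phosphatase catalytic subunit. It was at 25.0 CPM in both DMSO libraries of D1 and at 39.0 and 35.4 CPM with TCDD. At D2 it was at 18.6 and 19.5 CPM with DMSO and at 32.8 and 33.7 CPM with TCDD. Every TCDD library was above every DMSO library, across both times. The log2 fold change with TCDD was 0.58 ± 0.06 at D1 (edgeR adjusted p = 1.14e-05, rank 17 of all genes by p) and 0.80 ± 0.07 at D2 (edgeR adjusted p = 9.71e-08, rank 13). In 15 alternative fits both calls remained, with log2 fold changes of 0.50 to 0.64 at D1 and 0.77 to 0.84 at D2. The difference between the effects at D2 and D1, 0.22 ± 0.09, was not called (edgeR adjusted p = 0.373).

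During differentiation PDP1 fell by 0.39 ± 0.07 on the log2 scale with DMSO (edgeR adjusted p = 3.98e-05) and by 0.16 ± 0.06 with TCDD (edgeR adjusted p = 0.0247). The second call was lost with DESeq2 (adjusted p = 0.0966), without TCDD D1 replicate 1 (edgeR adjusted p = 0.290, log2 fold change -0.09) and without TCDD D2 replicate 1 (edgeR adjusted p = 0.136).

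PDP2, the second phosphatase catalytic subunit, did not share the TCDD response of PDP1 at the threshold used. It was at 75.4 and 75.5 CPM with DMSO and 74.2 and 74.3 CPM with TCDD at D1, and at 60.2 and 61.9 against 62.5 and 62.7 CPM at D2. The PDP2 groups overlapped at neither time, so separation of so few libraries does not by itself mark a change. Its log2 fold change with TCDD was -0.02 ± 0.05 at D1 and 0.04 ± 0.05 at D2 (edgeR adjusted p = 0.931 and 0.814), and a difference between PDP1 and PDP2 was not tested. PDP2 fell from D1 to D2 by 0.30 ± 0.05 with DMSO (edgeR adjusted p = 9.89e-06) and by 0.24 ± 0.05 with TCDD (edgeR adjusted p = 0.000120), both on the log2 scale.

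PDHB encodes the beta subunit of E1, the component that decarboxylates pyruvate. It was at 267 and 270.0 CPM with DMSO and 287 and 291 CPM with TCDD at D1, and at 244 and 237 against 212 and 215 CPM at D2. The TCDD libraries were the higher at D1 and the lower at D2, without overlap at either time. The log2 fold change with TCDD was 0.11 ± 0.04 at D1 (edgeR adjusted p = 0.351, not called) and -0.17 ± 0.04 at D2 (edgeR adjusted p = 0.0285). The difference of these effects was -0.28 ± 0.06 (edgeR adjusted p = 0.0265). The D2 call was lost on leaving out any of the 4 D2 libraries (edgeR adjusted p = 0.150 to 0.380), and that of the difference on leaving out any library but those of TCDD at D1 (edgeR adjusted p = 0.0810 to 0.233). PDHB fell from D1 to D2 by 0.16 ± 0.04 on the log2 scale with DMSO (edgeR adjusted p = 0.00282) and by 0.44 ± 0.04 with TCDD (edgeR adjusted p = 1.52e-08). Without DMSO D2 replicate 2, the first of these was no longer called (edgeR adjusted p = 0.0609).

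PDHA1 encodes the E1 alpha subunit, which carries the serines that the kinases phosphorylate. With DMSO it was at 130 CPM in both D1 libraries and at 191 and 189 CPM at D2. With TCDD it was at 125 and 134 CPM at D1 and at 198 and 195 CPM at D2. It rose 1.46-fold from D1 to D2 with DMSO (log2 fold change 0.55 ± 0.05, edgeR adjusted p = 1.41e-09) and 1.52-fold with TCDD (0.60 ± 0.05, edgeR adjusted p = 3.19e-10). The 2 subunits of E1 thus moved in opposite directions: the ratio of PDHA1 to PDHB reads was 0.488 and 0.480 with DMSO and 0.436 and 0.459 with TCDD at D1, and 0.783 and 0.799 against 0.935 and 0.905 at D2. That ratio is of reads and is not corrected for transcript length.

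DLAT, the E2 acetyltransferase core, was at 139 and 136 CPM with DMSO and 139 and 141 CPM with TCDD at D1, and at 188 and 196 against 193 and 198 CPM at D2. It rose 1.39-fold from D1 to D2 with DMSO (log2 fold change 0.48 ± 0.04, edgeR adjusted p = 8.10e-09) and by 0.48 ± 0.04 on the log2 scale with TCDD (edgeR adjusted p = 7.01e-09). DLD, the E3 dehydrogenase that the related oxoacid complexes also use, was at 163 and 170.2 CPM with DMSO and 164 and 173 CPM with TCDD at D1. At D2 it was at 190.0 and 186 against 195 and 182 CPM. DLD rose by 0.17 ± 0.05 on the log2 scale with DMSO (edgeR adjusted p = 0.00380) and by 0.16 ± 0.05 with TCDD (edgeR adjusted p = 0.00578). Without composition scaling these were 0.09 and 0.05 and not called (edgeR adjusted p = 0.137 and 0.365), nor were they called without DMSO D1 replicate 1 (edgeR adjusted p = 0.0508) and without TCDD D2 replicate 1 (edgeR adjusted p = 0.0893), respectively. With TCDD, the log2 fold changes of PDHA1, DLAT and DLD lay between -0.01 and 0.05 at both times, and none was called.

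In the TCDD comparison at D1, 2 of the 10 members were called, both higher, where 1.14% of all genes tested were called, 0.735% higher and 0.405% lower. At D2, 1 was called higher and 1 lower, where 2.90% of all genes were called, 1.40% higher and 1.50% lower. For the difference of the TCDD effects, 2 members were called lower, PDK1 and PDHB, where 0.822% of all genes were called, 0.527% higher and 0.295% lower. The median log2 fold change of the members with TCDD was 0.06 at D1 and 0.03 at D2, with medians over all tested genes of 0.0004 and 0.0008. Members that were not called had edgeR adjusted p-values of 0.351 to 0.987 at D1 and 0.318 to 0.973 at D2. PDK4 apart, their log2 fold changes ran from -0.07 to 0.11 at D1 and from -0.10 to 0.12 at D2.

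**Figure D2:**
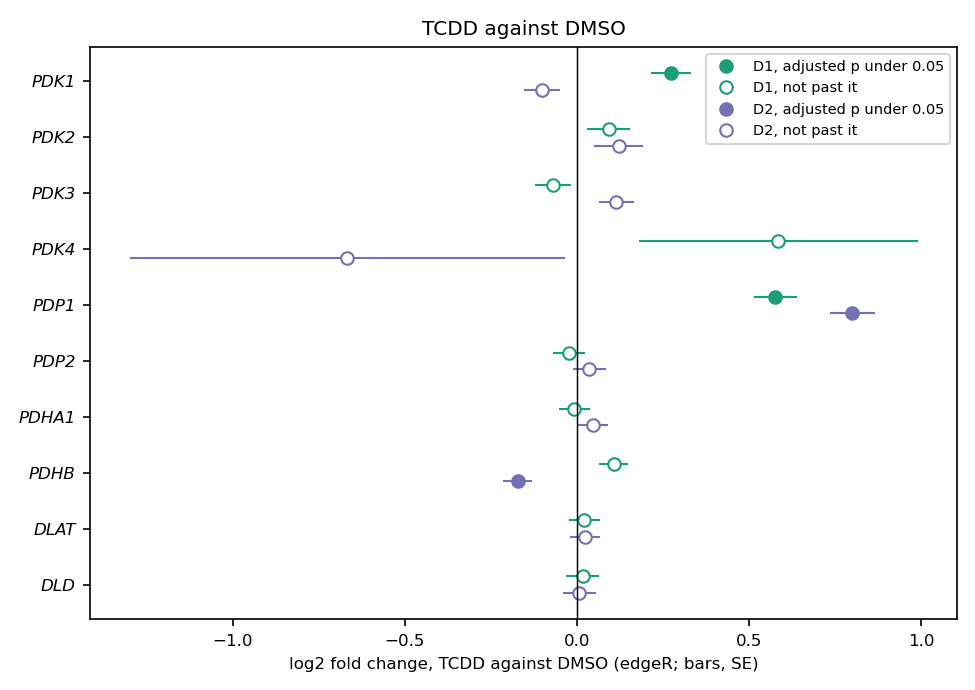
Log2 fold change with TCDD against DMSO (horizontal axis) for the 10 genes, at D1 in green and at D2 in purple; bars are SE and filled points have an edgeR adjusted p under 0.05. PDP1 lies at 0.58 and 0.80, PDK1 lies at 0.27 at D1 and -0.10 at D2, and PDK4 has wide bars because of its low counts.

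At D2 the TCDD and DMSO cells also differed in markers of other cell states. The 8 streak and early mesoderm markers summed to 491 to 562 CPM with TCDD and 809 to 832 CPM with DMSO, the 5 endoderm markers to 30.3 to 34.3 against 50.7 to 55.7 CPM, and the 8 pluripotency markers to 4365 to 4395 against 4007 to 4079 CPM. Not every marker followed its sum. SP5 and TBX6 of the streak list, FOXA2 and HHEX of the endoderm list, and DPPA4 and ZFP42 of the pluripotency list overlapped between treatments. The streak marker MESP1 was higher with TCDD, and the pluripotency marker NANOG was lower. SOX17, a defining endoderm marker, was at 0 in both DMSO libraries and had 0 and 1 counts with TCDD. At D1 the 5 neuroectoderm markers summed to 10.5 to 13.4 CPM with TCDD and 4.77 to 5.08 CPM with DMSO, with SOX21 and PAX6 at 1 CPM or more in each group. SOX21 carried that gap, at 8.38 and 11.4 CPM with TCDD against 2.56 and 3.25 CPM with DMSO, while PAX6 was at 1.65 to 1.94 CPM in the 4 libraries. At D2 the neuroectoderm sums were 4.84 to 5.06 CPM with TCDD and 1.99 to 2.24 CPM with DMSO. SOX21 was at 3.35 and 3.30 against 0.519 and 0.657 CPM there, and PAX6 overlapped. The 6 fibroblast markers at D1 summed to 847 to 929 CPM with TCDD and 834 to 876 CPM with DMSO, with LUM at 0 in both groups. THY1, COL1A1 and COL1A2 carried those sums, while COL3A1 and DCN had 0 to 2 counts a library. At D2 the fibroblast markers summed to 353 to 355 CPM with TCDD and 297 to 314 CPM with DMSO. COL1A1 was higher with TCDD there, and THY1 and COL1A2 were lower. The part of these markers in the changes of PDK1, PDP1 and PDHB was not tested.

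Between D1 and D2 nearly all members were called, as were most genes. With DMSO, 5 members were called higher and 4 lower, where 63.2% of all genes were called, 32.5% higher and 30.7% lower. With TCDD, 5 were called higher and 5 lower, where 65.3% of all genes were called, 33.1% higher and 32.2% lower. In both treatments PDK1, PDK3, PDHA1, DLAT and DLD rose, and PDK2, PDP1, PDP2 and PDHB fell. Both treatments' comparisons therefore gave the same direction for those 9 genes, and PDK4 fell past the threshold in the TCDD comparison alone. For PDK4 the difference between treatments, -1.25 on the log2 scale, was not called (edgeR adjusted p = 0.613). The median log2 fold change of the members was 0.01 with DMSO and -0.001 with TCDD, and that of all genes 0.009 and -0.002.

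**Figure D3:**
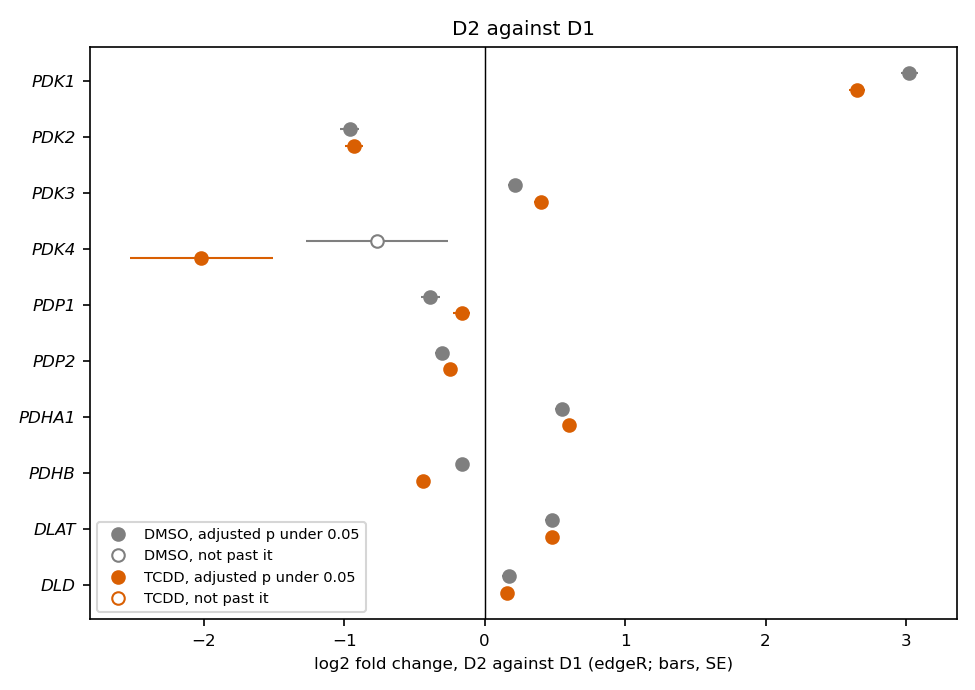
Log2 fold change at D2 against D1 (horizontal axis) for the 10 genes with DMSO in grey and with TCDD in orange; bars are SE and filled points have an edgeR adjusted p under 0.05. PDK1 stands apart at 3.02 and 2.65, and the core genes other than PDHB lie between 0.16 and 0.60.

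The make-up of the kinase transcripts changed with differentiation. PDK1 gave 37.4% and 36.2% of the reads of the 4 kinase genes with DMSO at D1, and 82.5% and 81.7% at D2. PDK3 gave 50.4% in both of those D1 libraries and 15.7% and 16.5% at D2. PDK3 thus gave the most kinase reads at D1 and PDK1 at D2. Per base of merged exons in GENCODE v29, PDK3 stood above PDK1 at both times. That order rests on lengths of 14253 bases for PDK1 and 2513 for PDK3. The annotation of the counts may hold other lengths, and another PDK1 length could change the order. With TCDD, the PDK1 share was 42.3% and 41.4% at D1 and 80.0% and 79.6% at D2, above both DMSO libraries at D1 and below both at D2. Among phosphatase reads, the PDP1 share was 24.9% and 24.8% with DMSO and 34.5% and 32.3% with TCDD at D1, and 23.6% and 24.0% against 34.4% and 35.0% at D2. It was thus nearly the same at both times within a treatment. All these shares are of reads and not corrected for length.

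The kinase genes summed to 224 and 212 CPM with DMSO and 243 and 220.2 CPM with TCDD at D1, and to 797 and 794 against 780.0 and 746 CPM at D2. The phosphatase genes summed to 100.4 CPM in both DMSO libraries and to 113 and 109.7 CPM with TCDD at D1, and to 78.9 and 81.5 against 95.4 and 96.5 CPM at D2. Kinase reads per phosphatase read were 2.23 and 2.11 with DMSO and 2.15 and 2.01 with TCDD at D1, which overlap. At D2 they were 10.1 and 9.75 with DMSO and 8.18 and 7.73 with TCDD, which do not. These ratios combine genes chosen with results of the same libraries known and are given as a description, with no test. Against the 4 core genes, kinase reads per core read went from 0.320 and 0.301 to 0.981 and 0.983 with DMSO, and from 0.339 and 0.298 to 0.978 and 0.945 with TCDD. All these sums and ratios are of reads and not corrected for length, so the long PDK1 (14253 bases of merged exons) weighs heavily in them. Per kilobase with DMSO, PDK1 went from 5.63 at D1 to 45.8 CPM at D2, and PDK3 from 43.8 to 50.9 CPM.

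**Figure D4:**
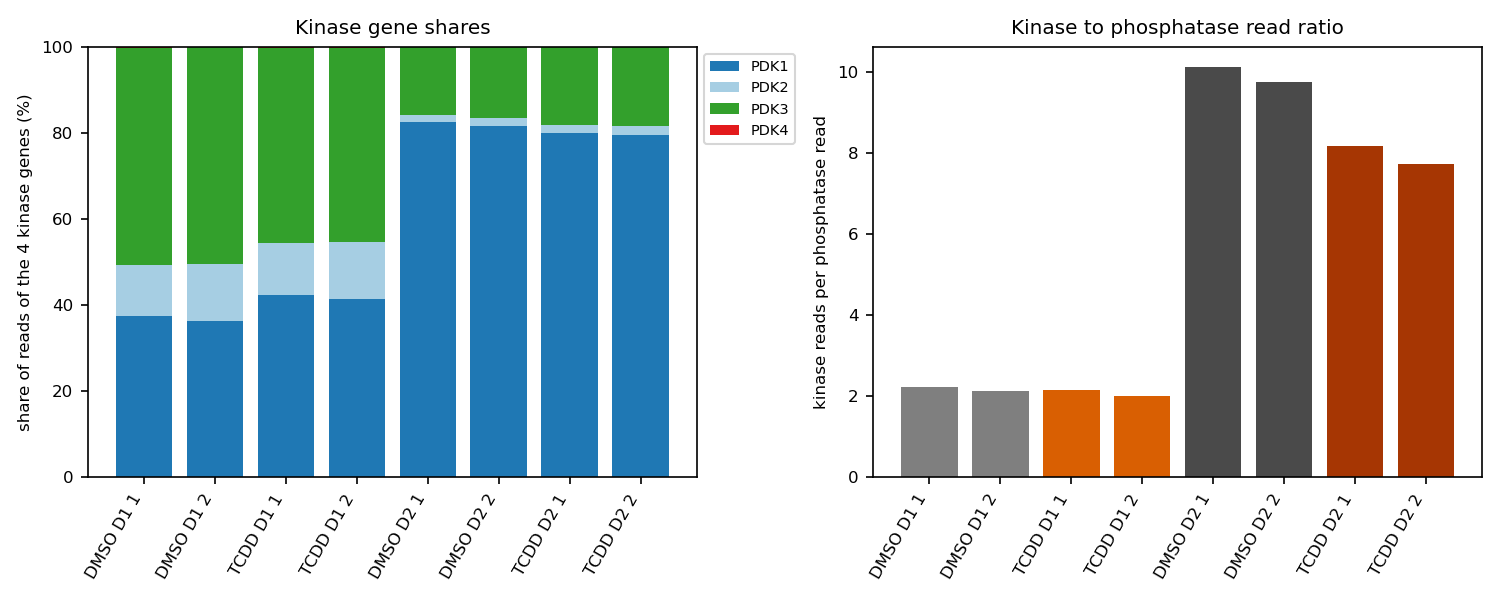
Left, share of the reads of the 4 kinase genes that each gave (percent, stacked to 100; PDK4 is too low to see); right, kinase reads per phosphatase read (linear axis from 0), both for each of the 8 libraries. PDK1 goes from 36.2% to 42.3% of kinase reads at D1 to 79.6% to 82.5% at D2, and the ratio from 2.01 to 2.23 at D1 to 7.73 to 10.1 at D2. Shares and ratios are of reads and not corrected for length.

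Levels of different genes were compared per kilobase of merged exons (GENCODE v29 on GRCh38, which is not the annotation of the counts). With DMSO at D1, PDHB was highest at 162 ± 1.26 CPM per kilobase (SD, n = 2, as for the other levels). DLD followed at 44.3 ± 1.35 and PDK3 at 43.8 ± 1.70, which do not differ beyond their spread and change places when the principal transcript's length is used. PDHA1 was at 34.5 ± 0.164, DLAT at 30.9 ± 0.485, PDP2 at 10.6 ± 0.0110 and PDK2 at 7.10 ± 0.272 CPM per kilobase. PDK1 at 5.63 ± 0.340 and PDP1 at 5.41 ± 0.00607 did not differ beyond their spread, and they too change places with the other length. PDK4 was lowest at 0.117 ± 0.0751 CPM per kilobase. With DMSO at D2, PDK1 had reached 45.8 ± 0.472 CPM per kilobase, below PDK3 at 50.9 ± 1.71 and DLD at 49.9 ± 0.845 and above DLAT at 43.1 ± 1.17. With TCDD at D2, PDK1 was at 42.7 ± 1.49 CPM per kilobase, below PDK3 at 55.1 ± 1.25, and it did not differ beyond the spread from DLAT at 43.8 ± 0.793.

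Of the other genes of the complex, PDHX, the E3-binding protein, was at 69.4 and 67.8 CPM with DMSO and 67.0 and 70.1 CPM with TCDD at D1, and at 74.8 and 76.2 against 83.1 and 80.3 CPM at D2. PDHX rose from D1 to D2 by 0.14 ± 0.05 on the log2 scale with DMSO (edgeR adjusted p = 0.0170) and by 0.25 ± 0.05 with TCDD (edgeR adjusted p = 0.000101). PDPR, the phosphatase regulatory subunit, was at 145 ± 2.68 CPM with DMSO and 142 ± 6.31 CPM with TCDD at D1 (SD, n = 2), and at 157 ± 1.17 against 152 ± 0.710 CPM at D2. PDPR rose by 0.12 ± 0.05 from D1 to D2 with DMSO (edgeR adjusted p = 0.0265), and its change of 0.10 ± 0.05 with TCDD was not called (edgeR adjusted p = 0.0677). With DESeq2 neither gene's rise with DMSO was called (adjusted p = 0.0644 for PDHX and 0.0685 for PDPR). Neither was called with TCDD against DMSO at either time. PDHA2, the testis form of E1 alpha, had 1 to 9 counts a library and was not tested.

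The genes most like each kinase gene were found by Pearson's r of log2 CPM over the 8 libraries, among genes whose mean was 10 CPM or more. The libraries share their grouping by time, so r is high for many genes: 3403 of 10064 exceeded 0.9 with PDK1. For PDK1 the closest were ANOS1, GAD1 and BRD9, with r of 0.9995, 0.999 and 0.998. For PDK2 they were AIM1L, TEAD3 and CREB3L1 (0.999 each). For PDK3 they were CCDC6, CEP350 and SALL1 (0.988, 0.987 and 0.987), and for PDK4 they were MYC, ZCCHC3 and COL5A2 (0.936, 0.928 and 0.928). With PDK4 only 10 of 10065 genes exceeded 0.9. Its 5 to 32 counts a library make its profile, and so its closest genes, uncertain. These values describe shape and not size: BRD9 rose by a log2 fold change of 0.47 from D1 to D2 with DMSO where GAD1 rose by 7.52.

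Genes around the complex were read in lists. Of 16 genes for pyruvate entry and its other fates, 2 were called with TCDD at D1, both higher, where 0.735% of all genes were called higher. SLC16A1, the monocarboxylate transporter MCT1, was at 718 ± 11.8 CPM with DMSO and 910 ± 44.2 CPM with TCDD (SD, n = 2 each) and rose by 0.34 ± 0.04 on the log2 scale (edgeR adjusted p = 8.64e-05). LDHA, a subunit of lactate dehydrogenase, was at 720 ± 9.41 and 847 ± 28.8 CPM and rose by 0.23 ± 0.04 on the log2 scale (edgeR adjusted p = 0.00574). At D2, 1 was called, where 2.90% of all genes were: SLC16A7, the transporter MCT2, which rose by 0.56 ± 0.09 on the log2 scale (edgeR adjusted p = 0.000420). The list's median log2 fold change with TCDD was 0.09 at both times. With DMSO, 8 of the 16 rose from D1 to D2 and 4 fell, where 32.5% of all genes rose and 30.7% fell. LDHA rose by 1.16 ± 0.04 on the log2 scale and GPT2, a mitochondrial alanine aminotransferase, by 0.44 ± 0.05, and LDHD, a D-lactate dehydrogenase, fell by 1.82 ± 0.08 (edgeR adjusted p = 5.77e-15, 2.48e-07 and 3.87e-14). With TCDD, 7 rose and 6 fell, where 33.1% of all genes rose and 32.2% fell.

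Of 30 genes of hypoxia and glycolysis, 7 were called with TCDD at D1, all higher, where 0.735% of all genes were called higher, and the list's median log2 fold change was 0.15. EGLN1, an oxygen-sensing prolyl hydroxylase, was at 33.1 ± 2.44 CPM with DMSO and 43.3 ± 2.77 CPM with TCDD (log2 fold change 0.39 ± 0.06, edgeR adjusted p = 0.00112). BNIP3, a mitophagy receptor, was at 123 ± 5.13 and 152 ± 7.69 CPM (0.31 ± 0.05, edgeR adjusted p = 0.00140), and P4HA1, a collagen prolyl hydroxylase subunit, at 156 ± 0.812 and 187 ± 4.45 CPM (0.26 ± 0.05, edgeR adjusted p = 0.00665). At D2, 1 of the 30 was called, where 1.40% of all genes were called higher: ADM, the peptide hormone adrenomedullin, which rose by 0.79 ± 0.08 on the log2 scale (edgeR adjusted p = 9.64e-06), and the median was 0.03. The TCDD effects at D2 were called lower than at D1 for 3 of the 30, where 0.295% of all genes were. The log2 differences were -0.36 for BNIP3, -0.33 for P4HA1 and -0.37 for EGLN1 (edgeR adjusted p = 0.0117, 0.0208 and 0.0385). The difference for PDK1 was -0.37. From D1 to D2 with DMSO, 24 of the 30 rose and 4 fell, where 32.5% of all genes rose and 30.7% fell, and the list's median was 0.46. BNIP3, EGLN1 and PFKFB3, a glycolytic regulator, rose by 1.83 ± 0.05, 1.35 ± 0.06 and 1.63 ± 0.07 on the log2 scale (edgeR adjusted p = 2.09e-17, 8.13e-14 and 4.59e-13). With TCDD, 22 rose and 5 fell, where 33.1% of all genes rose and 32.2% fell.

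**Figure D5:**
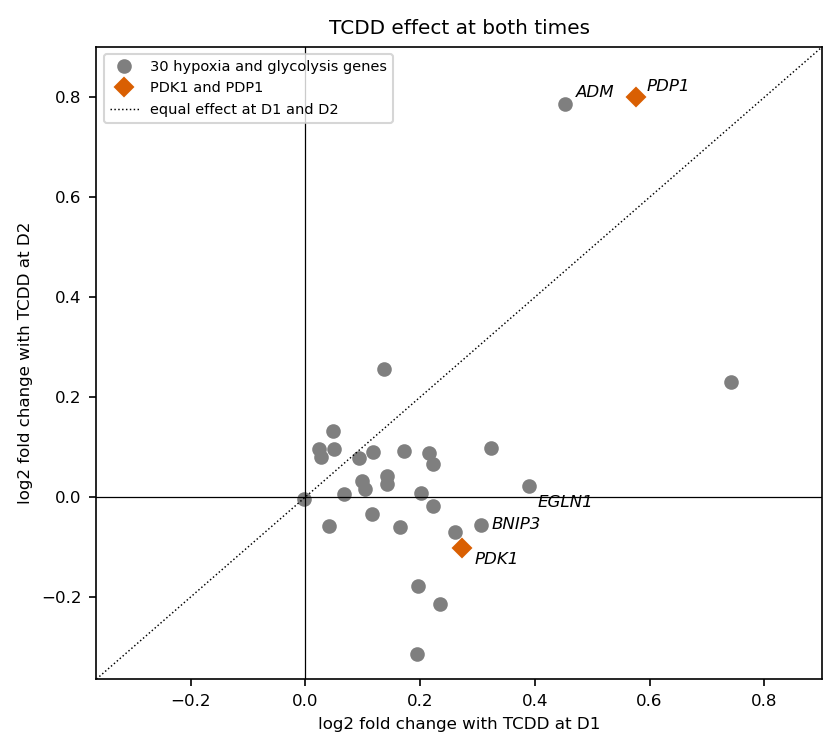
Log2 fold change with TCDD at D1 (horizontal axis) and at D2 (vertical axis) for the 30 hypoxia and glycolysis genes (grey) and for PDK1 and PDP1 (orange diamonds); the dotted line marks equal effects. PDK1 lies at 0.27 and -0.10 near BNIP3 at 0.31 and -0.06, and PDP1 lies at 0.58 and 0.80 near ADM at 0.45 and 0.79.

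Of 15 known regulators of kinase gene transcription, 14 were tested, and edgeR called 0 with TCDD at D1 and 0 at D2. Of all genes, 1.14% and 2.90% were called, so these counts say nothing particular to the list. At an unadjusted p under 0.05 the numbers of regulators were 3 and 0, and DESeq2 called 0 at both times. HIF1A, which encodes the oxygen-regulated subunit of HIF-1, was at 215 ± 2.85 CPM with DMSO and 210 ± 2.71 CPM with TCDD at D1 (SD, n = 2 each, edgeR adjusted p = 0.862). HIF-1 is regulated mainly through protein stability, which these counts do not measure. From D1 to D2 with DMSO, 1 of the 14 rose and 7 fell, where 32.5% of all genes rose and 30.7% fell. ESRRA, an estrogen-related receptor, rose by 0.76 ± 0.06 on the log2 scale, while FOXO1, a transcription factor restrained by insulin signalling, fell by 1.25 ± 0.05 and NR3C1, the glucocorticoid receptor, by 1.07 ± 0.09 (edgeR adjusted p = 2.56e-10, 3.30e-14 and 2.06e-09). With TCDD, 4 rose and 6 fell, where 33.1% of all genes rose and 32.2% fell.

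Of 18 tricarboxylic acid cycle genes, edgeR called 0 with TCDD at D1 (1 at an unadjusted p under 0.05, 0 by DESeq2), where 1.14% of all genes were called. At D2, 1 was called, where 2.90% of all genes were: SUCLA2, a succinate-CoA ligase subunit, which fell by 0.23 ± 0.05 on the log2 scale (edgeR adjusted p = 0.00985). With DMSO, 11 of the 18 rose from D1 to D2 and 4 fell, where 32.5% of all genes rose and 30.7% fell. SUCLA2 rose by 0.56 ± 0.05 and SUCLG1, its alpha partner, by 0.47 ± 0.05, and IDH2, the mitochondrial NADP isocitrate dehydrogenase, fell by 0.64 ± 0.05, all on the log2 scale (edgeR adjusted p = 3.53e-09, 3.96e-08 and 2.81e-10). With TCDD, 10 rose and 4 fell, where 33.1% of all genes rose and 32.2% fell.

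Some members overlap other RefSeq genes, and no source used here gives the strand setting of the counts, so reads in the overlaps cannot be assigned to either gene. Among genes in the count tables this concerns PDK1 with RAPGEF4-AS1, PDK2 with SAMD14, PDHA1 with MAP3K15 and DLAT with PIH1D2. PDK4, PDP1, PDP2 and DLD overlap no other gene in that annotation.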

How the data were processed

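Each of the 8 deposited tables held the authors' raw read counts per gene symbol, whole numbers with no normalisation. The submitters' processing notes name cutadapt 1.9.1, STAR, featureCounts 1.5.1 and the hg19 build. No STAR version, annotation, strand setting or rule for multi-mapping reads is given in the sources used here. Groups came from the sample titles. Replicates differed by more than sampling noise (chi-square per gene 3.21 to 6.59), and every library was counted as its own sample. That spread does not show that the libraries come from separate cultures.

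The tools were edgeR 4.0.16 and, as an alternative, DESeq2 1.42.0, under R 4.3.3. The filter filterByExpr on the groups left 17268 genes, and TMM factors ran from 0.958 to 1.04. A quasi-likelihood model with 4 group means, robust estimation of the spread and 4 residual degrees of freedom gave 5 comparisons, with two-sided F tests and Benjamini-Hochberg adjustment over all genes. Robust estimation was adopted after fits with and without it had been seen, because it gave the call counts of an earlier analysis of these data; the fit without it is among the alternatives and changed no member's call. SE values derive from the F statistic and can be too small at a few counts. The code was run on counts simulated from this fit's own means and spreads, which checks the code and not the calls reported here.

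The members and gene lists were chosen with earlier results of these data known. Named genes were all members, the other complex genes, CYP1A1, up to 3 called genes with the smallest p per list in each comparison described in detail, and the 3 genes most correlated with each kinase gene. Alternatives were other scalings, no filter beyond 1 count, DESeq2, only the groups compared, a replicate block and leaving out each library. Deviations of same-numbered libraries correlated at -0.100 to 0.110 over the 6 pairs of groups, so the numbers were not taken to pair samples. Promoter windows came from RefSeq (GRCh38.p14) and lengths from GENCODE v29, matched by symbol; no coordinates were converted.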

Additional observations from a re-analysis of the deposited data

Results flagged for a closer look

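For PDK1 and PDHB the difference between the TCDD effects at D2 and D1 passed the threshold. Both genes were chosen with results of these libraries known, so the values describe them and are no independent support for a difference. For PDK1 the difference of log2 fold changes, D2 minus D1, was -0.37 ± 0.08 (SE, edgeR adjusted p = 0.0198), with TCDD libraries above both DMSO libraries at D1 and below both at D2. For PDHB the difference was -0.28 ± 0.06 (SE, edgeR adjusted p = 0.0265), with the same placing of the libraries. That placing restates the same values and adds nothing to the p-values. PDP2 libraries were also separated at both times, and its difference of 0.06 was not called (edgeR adjusted p = 0.825). Leaving out a library ended the PDK1 call in 5 of 8 fits and the PDHB call in 6 of 8.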

How the results depend on the processing

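Of 50 member results (10 genes in 5 comparisons), 25 were called, of which 17 kept the call in every alternative and 8 lost it in at least 1; 1 other result gained a call, and no called result changed sign. With no filter beyond 1 count, 480 genes were called with TCDD at D1, 885 at D2 and 433 for the difference of effects, against 197, 500 and 142. With only the groups compared, PDK1 lost its call with TCDD at D1 and PDP1 kept its own. Leaving out a library gave 78 to 246 genes and 1 to 2 members at D1, 215 to 653 genes and 1 to 2 members at D2, and 49 to 269 genes and 0 to 2 members for the difference. Counts of genes moved by over 1.5 times at D1 without DMSO D1 replicate 1 (78), at D2 without DMSO replicate 1 (215) or 2 (268) or TCDD replicate 2 (248), and for the difference without DMSO D1 replicate 1 (53) or 2 (82), DMSO D2 replicate 1 (49) or 2 (80), TCDD D1 replicate 1 (269) or TCDD D2 replicate 2 (63). For D2 against D1 the ranges were 9183 to 11286 genes and 8 to 10 members with DMSO, and 9799 to 11300 genes and 8 to 10 members with TCDD. A lone library left in a group was assumed to vary like the other groups. The cause of these changes was not tested.

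With the replicate block, 205, 502, 10887, 11226 and 145 genes and 2, 2, 9, 10 and 2 members were called in the 5 comparisons, and no member's call changed. Without robust estimation, chosen as an alternative after seeing the data, 207, 509, 10913, 11269 and 133 genes were called. Without composition scaling, the median of all genes at D2 against D1 with TCDD moved to -0.11, with 4183 genes higher and 6992 lower against 5710 and 5561. With DMSO the split was 4377 and 6425 against 5613 and 5299, and for the difference of effects 75 and 65 against 91 and 51. DESeq2 called 214 higher and 147 lower with TCDD at D2, against 241 and 259. DESeq2 gave no adjusted p for PDK4 with TCDD at D2 or for its difference of effects. Depth limits PDK4 alone among the members, with 5 to 32 counts a library.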

Other observations

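Enzymes that share cofactors or DLD with the pyruvate dehydrogenase complex moved in both directions from D1 to D2. Of 9 genes of the related oxoacid dehydrogenase complexes, edgeR called 0 with TCDD at D1 and 0 at D2 (2 at each time at an unadjusted p under 0.05, and 0 by DESeq2), where 1.14% and 2.90% of all genes were called, so the count says nothing particular to the list. From D1 to D2 with DMSO, 3 rose and 5 fell, where 32.5% of all genes rose and 30.7% fell. OGDHL, a 2-oxoglutarate dehydrogenase-like subunit, rose from 59.6 ± 1.13 to 107 ± 0.673 CPM (SD, n = 2 each, log2 fold change 0.84 ± 0.05, edgeR adjusted p = 2.89e-11). DHTKD1, a 2-oxoadipate dehydrogenase, and DBT, the E2 of the branched-chain complex, each fell by 0.35 on the log2 scale (edgeR adjusted p = 5.20e-07 and 1.78e-06).

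Of 11 genes that supply lipoate and thiamine, edgeR called 0 with TCDD at D1 (1 at an unadjusted p under 0.05, 0 by DESeq2), where 1.14% of all genes were called. At D2, 1 was called, where 2.90% of all genes were: NFU1, an iron-sulfur carrier needed for lipoate synthesis. It was at 51.6 ± 0.864 CPM with DMSO and 42.9 ± 0.394 CPM with TCDD (SD, n = 2 each, log2 fold change -0.27 ± 0.05, edgeR adjusted p = 0.00420). From D1 to D2 with DMSO, 6 of the 11 rose and 2 fell, where 32.5% of all genes rose and 30.7% fell. LIAS, the lipoate synthase, rose by 0.88 ± 0.06 on the log2 scale and NFU1 by 0.58 ± 0.05, and SLC19A3, a thiamine transporter, fell by 0.47 ± 0.09 (edgeR adjusted p = 1.09e-10, 6.83e-09 and 9.66e-05).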
